A study of Mus musculus with 9 samples.

Results

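Cells show fragments of their own proteins at the surface on MHC class I molecules, each made of a heavy chain, the light chain β2-microglobulin and a bound peptide, and CD8 T cells and NK cells read them. The TAP transporter pumps peptides cut by the proteasome into the endoplasmic reticulum, where tapasin holds empty class I molecules beside it until a peptide is loaded. The promoters of these genes are classically described with κB and interferon response elements and with a module bound through NLRC5, the class I transactivator, and TNF-α is among the cytokines known to raise class I levels. The genes described here are B2m (the light chain), H2-K1 and H2-D1 (classical heavy chains), H2-Q4 and H2-T23 (non-classical heavy chains), Tap1 and Tap2 (the subunits of the transporter), Tapbp (tapasin) and Nlrc5. They were chosen by name, with earlier results of these data known, and are 9 of the 56289 genes in the deposited table.

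The study sequenced poly(A) RNA as paired-end libraries from cultures of a line labelled RAW264.7, a mouse line used as a macrophage model, with BALB/c given as its strain. There were 3 libraries of untreated cells (Con), 3 of cells given TNF-α (recombinant human protein, by the study's methods) at 20 ng/ml, and 3 of cells given the same TNF-α with 1.0 μg/ml of WBT, a herbal tablet taken for rheumatoid arthritis. Both treatments lasted 24 h, and the last group is called TNF-α+WBT in the paper and WBP in the sample labels. The paper calls the libraries of a group biological replicates, and the sample labels do not say whether they came from separate cultures. The p-values measure the spread between these libraries. Levels are FPKM, which count fragments relative to transcript length and library depth. FPKM values do not carry the depth. The spacing of the lowest values, which move in steps of 1 fragment, gave an estimate of it. The estimates were 26200000, 21610000 and 20330000 fragments for Con, 21100000, 22460000 and 18910000 for TNF-α, and 18400000, 19860000 and 16900000 for TNF-α+WBT. At these depths Tap1 rested on 104 to 177 estimated fragments per library and Nlrc5 on 136 to 234. Tapbp rested on 4339 to 11057, B2m on 3650 to 8642, and H2-Q4 on 429 to 2083. Such fragment numbers are approximate, since 47.1% to 52.4% of low values lay within 0.1 of a whole fragment where chance gives 20%.

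The macrophage label was set against marker genes. Of 16 macrophage genes, 1 lay above 1 FPKM in all 9 libraries, Cd14 at 4.30 to 6.16 FPKM, and 7 had a value of 0 throughout (Adgre1, Ctss, Cybb, Itgam, Ptprc, Spi1 and Tyrobp). The summed macrophage list reached 6.14 to 8.89 FPKM, which goes against the label. None of 7 dendritic, 10 T and NK, 5 B, 6 endothelial or 6 epithelial genes lay above 1 FPKM in all libraries, while all 12 genes used by every cell did. Of 14 fibroblast genes 12 did, with Sparc the most abundant at 990.04 to 1129 FPKM and Lum at 0. The class I genes are therefore described for these libraries as labelled, with no cell type assigned. Some of these markers moved with TNF-α. Of 10 Schwann cell genes 7 lay above 1 FPKM in all libraries, and 5, S100b, Erbb3, Ngfr, Cdh19 and Foxd3, were lower in TNF-α than in Con at an adjusted p under 0.05 in limma, against 1.93% of all tested genes, and none was higher. The sum of these 10 genes was 527, 533 and 541 FPKM in Con, 386, 411 and 363 FPKM in TNF-α, and 406, 415 and 434 FPKM in TNF-α+WBT, so both treated groups lay below Con and overlapped each other. The summed fibroblast list was 4036, 4256 and 4007 FPKM in Con, 4386, 4482 and 4425 FPKM in TNF-α, and 4306, 4369 and 4278 FPKM in TNF-α+WBT, with Col1a1, Col1a2 and Col6a1 higher and Pdgfrb and Postn lower in TNF-α. Their part in the class I results was not tested, and in bulk RNA more cells of a type and more RNA per cell cannot be told apart.

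All 9 class I genes lay above 1 FPKM in all 9 libraries and were among the 25417 genes tested, those above 0 FPKM in at least 3 libraries. The comparison of TNF-α with Con asks what the cytokine does to their transcripts. A limma model of all 9 libraries on log2(FPKM + 0.1), a scale that understates the changes of low genes, gave 8 of the 9 class I genes a Benjamini-Hochberg adjusted p under 0.05, all higher with TNF-α. The same call was made for 2.94% of all tested genes, and for 5.09% of the 12684 genes that averaged 1 FPKM or more. The exception was Tap1. The study's own rule asks for more than a 2-fold change and an unadjusted p below 0.05. By it, B2m, H2-K1, H2-D1, H2-Q4 and Tapbp passed, 5 of 9 against 1.37% of all tested genes. All 9 had every TNF-α library above every Con library, against 11.1% of all tested genes. The median log2 fold change was 1.03 over the class I genes and 0.003 over all tested genes. For a single gene an exact two-sided permutation test of 3 libraries against 3 cannot give a p below 0.1, so the tests quoted are those of the limma model.

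**Figure D1:**
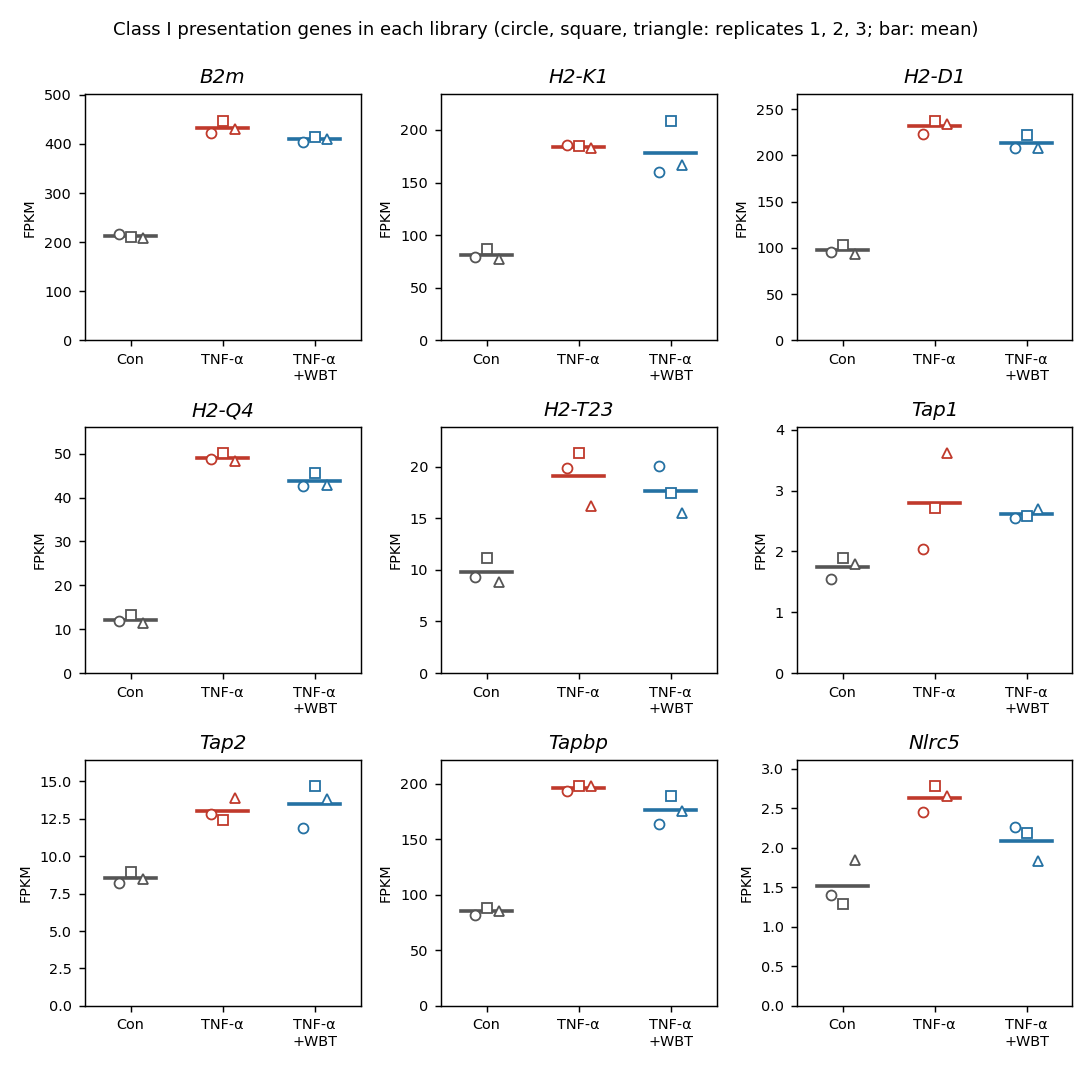
FPKM (linear axes from 0, scaled per gene) of the 9 class I presentation genes in each library of Con, TNF-α and TNF-α+WBT; each point is a library and each bar a group mean. In all 9 genes the TNF-α libraries lie above the Con libraries.

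B2m encodes the light chain that every classical class I molecule needs to be stable. Its level was 217, 210.5 and 209 FPKM in the Con libraries. It was 423, 447 and 430.1 FPKM with TNF-α, and 403, 414 and 411 FPKM with TNF-α+WBT. The 3 groups did not overlap, with Con far below and TNF-α+WBT just under TNF-α. The group levels were 212 ± 4.18 FPKM, 433 ± 12.7 FPKM and 409 ± 5.31 FPKM (SD, n = 3 each). From Con to TNF-α the level rose 2.04-fold, a log2 fold change of 1.03 with a standard error of 0.03 (adjusted p = 1.02e-06, limma). A single transcript is annotated for this gene, so its value is not divided between transcripts.

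H2-K1 and H2-D1 encode the classical heavy chains, which present peptides to CD8 T cells. H2-K1 stood at 79.1, 87.2 and 77.7 FPKM in Con and at 185, 184 and 183 FPKM in TNF-α. With TNF-α+WBT it stood at 159.7, 209 and 166 FPKM. The TNF-α libraries lay close together, whereas TNF-α+WBT replicate 2 lay above all of them and the other replicates below. The rise from Con to TNF-α was 2.26-fold (log2 fold change 1.18, 95% interval 0.97 to 1.39, adjusted p = 0.000157, limma). H2-D1 stood at 95.7, 103 and 93.5 FPKM in Con, at 223, 238 and 234 FPKM in TNF-α, and at 208, 222 and 208 FPKM in TNF-α+WBT. All TNF-α+WBT libraries of H2-D1 lay below all TNF-α libraries, the nearest pair being 222 and 223 FPKM. H2-D1 rose 2.38-fold with TNF-α (log2 fold change 1.25, 95% interval 1.14 to 1.36, adjusted p = 2.35e-06, limma).

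H2-Q4 and H2-T23 encode non-classical heavy chains. The H2-T23 product, Qa-1, is the ligand that NKG2A receptors of NK cells read. H2-Q4 measured 11.9, 13.2 and 11.5 FPKM in Con, 48.7, 50.1 and 48.4 FPKM in TNF-α, and 42.7, 45.5 and 42.9 FPKM in TNF-α+WBT. The groups were separate, and among the 9 class I genes H2-Q4 had the largest log2 fold change from Con to TNF-α, 2.00 with a standard error of 0.06 (adjusted p = 5.64e-07, limma). H2-T23 measured 9.35, 11.1 and 8.86 FPKM in Con, 19.8, 21.3 and 16.2 FPKM in TNF-α, and 20.02, 17.5 and 15.5 FPKM in TNF-α+WBT. Its treated groups overlapped each other and lay above Con, with a wider spread than H2-Q4 (19.1 ± 2.61 FPKM against 49.1 ± 0.894 FPKM in TNF-α, SD, n = 3). H2-T23 rose 1.94-fold with TNF-α (log2 fold change 0.96, 95% interval 0.65 to 1.26, adjusted p = 0.00404, limma).

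Since FPKM is per length, the 4 heavy chains could be summed and set against the light chain. Other heavy chains were left out of this sum. H2-T22 averaged 23.9 FPKM in Con, above H2-Q4 and H2-T23, and 31.8 FPKM in TNF-α, and H2-M3 averaged 7.97 and 11.5 FPKM. The ratio and shares below therefore hold for these 4 chains only. Their sum was 201 ± 12.1 FPKM in Con, 484 ± 8.46 FPKM in TNF-α and 453 ± 36.1 FPKM in TNF-α+WBT (SD, n = 3 each). B2m per FPKM of the 4 heavy chains was 1.11, 0.981 and 1.09 in Con. It was 0.886, 0.907 and 0.894 in TNF-α, below every Con library (exact permutation p = 0.1, the smallest possible). In TNF-α+WBT the ratio was 0.937, 0.837 and 0.948, which overlapped with TNF-α. H2-Q4 made up 6.06%, 6.16% and 6.01% of the heavy-chain sum in Con and 10.21%, 10.15% and 10.06% in TNF-α. In TNF-α+WBT its share was 9.92%, 9.21% and 9.91%, between the other groups and overlapping neither. H2-D1 had the largest share, 48.5% on average in Con, 47.8% in TNF-α and 47.1% in TNF-α+WBT, with overlapping groups. The H2-K1 share averaged 40.5% in Con and 38.1% in TNF-α, where every library lay below every Con library, and 39.3% in TNF-α+WBT, which overlapped with both. The H2-T23 share was likewise lower without overlap, at 4.77%, 5.19% and 4.63% in Con and 4.16%, 4.32% and 3.37% in TNF-α, and overlapped with both in TNF-α+WBT.

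Tap1 and Tap2 encode the subunits of the peptide transporter, and Tapbp encodes tapasin, which bridges it to the heavy chain. Tap1 was at 1.54, 1.89 and 1.79 FPKM in Con, at 2.03, 2.72 and 3.61 FPKM in TNF-α, and at 2.55, 2.59 and 2.69 FPKM in TNF-α+WBT. TNF-α replicate 1 was close to Con and TNF-α replicate 3 was well above the rest, so the mean rested unevenly on its libraries. The log2 fold change of Tap1 was 0.62 with an interval from 0.18 to 1.06, and the adjusted p of 0.135 in limma missed the threshold. Without TNF-α replicate 1 it was 0.82 with an adjusted p of 0.0367, without TNF-α replicate 3 it was 0.42 with an adjusted p of 0.292, and over all alternatives the adjusted p ran from 0.0367 to 0.308. Tap2 was at 8.21, 8.98 and 8.48 FPKM in Con, at 12.8, 12.4 and 13.9 FPKM in TNF-α, and at 11.9, 14.7 and 13.8 FPKM in TNF-α+WBT. Both treated groups of Tap2 lay above Con and overlapped each other, and the rise with TNF-α was 1.52-fold (log2 fold change 0.60, adjusted p = 0.00408, limma). Tapbp was at 81.9, 88.4 and 85.4 FPKM in Con, at 193, 198 and 198 FPKM in TNF-α, and at 164, 189 and 175 FPKM in TNF-α+WBT. The groups of Tapbp were separate, with TNF-α+WBT between the others, and the rise with TNF-α was 2.30-fold (log2 fold change 1.20, adjusted p = 5.84e-06, limma). Tapbp per FPKM of Tap2 averaged 9.96 in Con, 15.1 in TNF-α and 13.1 in TNF-α+WBT, with no overlap between groups. Tap2 per FPKM of Tap1 overlapped between all groups, at averages of 4.95, 4.90 and 5.16.

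The transcripts annotated for each gene showed what the gene values rested on. The main coding transcript held 85.4% to 89.6% of the FPKM of H2-D1 in the 9 libraries, 91.9% to 95.0% of H2-Q4, 81.4% to 92.6% of H2-T23, 87.5% to 90.3% of Tapbp, and 60.4% to 70.6% of H2-K1. Tap2 differed from these. Its coding transcript Tap2-201 was at 6.13, 7.64 and 7.14 FPKM in Con and at 6.60, 8.33 and 8.00 FPKM in TNF-α, groups that overlapped (exact permutation p = 0.4). Its retained-intron transcript Tap2-202 was at 1.91, 1.13 and 1.25 FPKM in Con and at 5.97, 3.96 and 5.76 FPKM in TNF-α, groups that did not (exact permutation p = 0.1, the smallest possible). In TNF-α+WBT the coding transcript was at 8.91, 8.2 and 7.0 FPKM and the retained-intron transcript at 2.85, 6.27 and 6.72 FPKM. Retained-intron transcripts thus took 12.6% to 23.3% of Tap2 in Con, 31.9% to 46.6% in TNF-α and 23.9% to 48.6% in TNF-α+WBT. The division of a gene between transcripts is an estimate of the authors' software, and its error was not available. For Tap1 and Nlrc5, the least abundant class I genes here, the share of the main transcript ran from 13.2% to 81.1% and from 0% to 52.7%, so only their gene totals are read.

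Nlrc5 encodes the transactivator that drives class I promoters. It measured 1.40, 1.29 and 1.84 FPKM in Con, 2.45, 2.78 and 2.65 FPKM in TNF-α, and 2.26, 2.18 and 1.82 FPKM in TNF-α+WBT. The TNF-α libraries were above all others, and TNF-α+WBT overlapped with Con through Con replicate 3. Nlrc5 rose 1.71-fold with TNF-α (log2 fold change 0.77, 95% interval 0.41 to 1.13, adjusted p = 0.0278, limma). That call depended on single libraries. The adjusted p was 0.0934 without Con replicate 1, 0.0877 without Con replicate 2, and 0.0635, 0.102 and 0.0967 without TNF-α replicate 1, 2 and 3, within a range of 0.0124 to 0.102 over all alternatives.

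The comparison of TNF-α+WBT with TNF-α asks what the tablet does to cells under the cytokine. None of the 9 class I genes had an adjusted p under 0.05 in limma, where the background for lower genes was 0%. At an unadjusted p under 0.05, 4 of 9 were lower, B2m, H2-D1, H2-Q4 and Tapbp, against 3.43% of all tested genes, and their adjusted p-values were 0.763, 0.753, 0.682 and 0.682. That count depended on the settings and on single libraries. It was 0 without the intensity trend and 0 without TNF-α+WBT replicate 1. It was 2, H2-Q4 and Tapbp, after quantile normalization and without TNF-α replicate 2, TNF-α replicate 3 or TNF-α+WBT replicate 3. The same genes and Nlrc5, 5 of 9, had every TNF-α+WBT library below every TNF-α library, against 5.61% of all tested genes. After quantile normalization 3 did. The estimates were small, with a median log2 fold change of -0.11 over the class I genes and -0.002 over all tested genes, and 8 of 9 were negative. The intervals bound what these libraries allow. For H2-Q4 the log2 fold change was -0.17, with an interval from -0.29 to -0.04. For Tapbp it was -0.16, with an interval from -0.28 to -0.04. For H2-D1 it was -0.12, with an interval from -0.23 to -0.01. For B2m, the most abundant of the 9, it was -0.08, with an interval from -0.16 to -0.01, which is a fold of 0.945. The largest estimate was that of Nlrc5, -0.32, with an interval from -0.68 to 0.04. The estimates of H2-K1 (-0.06, interval -0.27 to 0.16), H2-T23 (-0.11, interval -0.42 to 0.19), Tap1 (-0.06, interval -0.49 to 0.38) and Tap2 (0.04, interval -0.15 to 0.23) spanned 0, and those of H2-K1, Tap1 and Tap2 changed sign when 1 library was left out. Intervals that span 0 do not show that a level stayed the same.

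The TNF-α libraries enter both comparisons above, and the Con libraries enter both comparisons with Con, so the values stand side by side and no relation between them is drawn. Against Con, TNF-α+WBT was higher at an adjusted p under 0.05 in 7 of the 9 class I genes, where 2.31% of all tested genes were, and without overlap in 8 of 9, where 10.2% were. The genes that missed the threshold were Tap1, with a log2 fold change of 0.56 (adjusted p = 0.198, limma), and Nlrc5, with 0.45 (adjusted p = 0.213, limma). The median log2 fold change was 0.95. H2-Q4 was 3.57-fold over Con with TNF-α+WBT and 4.0-fold with TNF-α. For B2m the values were 1.93-fold and 2.04-fold, for H2-D1 2.19-fold and 2.38-fold, and for Tapbp 2.06-fold and 2.30-fold. H2-K1 stood 2.18-fold and 2.26-fold over Con, H2-T23 1.80-fold and 1.94-fold, and Tap2 1.56-fold and 1.52-fold.

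**Figure D2:**
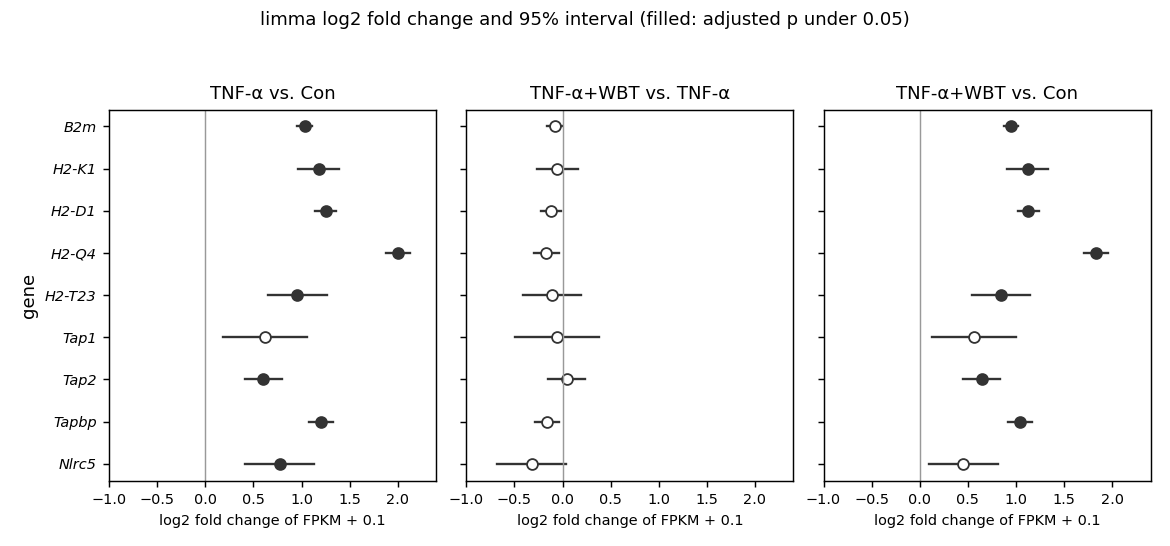
Log2 fold change with 95% interval of each class I presentation gene in the limma model for TNF-α vs. Con, TNF-α+WBT vs. TNF-α and TNF-α+WBT vs. Con; the comparisons share libraries. The estimates run from 0.60 to 2.00, from -0.32 to 0.04 and from 0.45 to 1.84.

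The other class I heavy chains gave a mostly low background to these genes. Of 18 listed, 10 could be tested and 7 were listed at 0 in all libraries. H2-M2 was tested only through the treated groups, since it was listed at 0 in all Con libraries. Of the other 9, H2-T22 and H2-M3 were higher with TNF-α, none was lower, and the median log2 fold change was 0.23. Of all tested genes, 2.94% were higher and 1.93% lower by the same call, an adjusted p under 0.05. H2-T22, which like H2-T23 encodes a non-classical chain, was at 25.1, 24.7 and 21.96 FPKM in Con and 30.1, 33.4 and 31.9 FPKM in TNF-α (log2 fold change 0.41, adjusted p = 0.0207, limma). Its adjusted p was 0.0713 without the intensity trend, 0.0699 without Con replicate 3, and 0.0806 and 0.0738 without TNF-α replicate 2 and 3. H2-M3, which presents formylated peptides, was at 7.50, 8.87 and 7.54 FPKM in Con and 11.8, 11.2 and 11.4 FPKM in TNF-α (log2 fold change 0.53, adjusted p = 0.00422, limma). H2-M2 was at 0.317, 0.405 and 0.169 FPKM in TNF-α, and against the 0 of Con no fold change or call is given. Among 12 class I-like genes, 9 could be tested and 0 had an adjusted p under 0.05 in limma between TNF-α and Con, with a median log2 fold change of 0.04. At an unadjusted p under 0.05 there were 2, Fcgrt and Raet1e, with adjusted p-values of 0.104 and 0.115, at log2 fold changes of -0.14 and 0.21.

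Peptide supply and loading were read from further lists. For their counts, 2.94% of all tested genes were higher with TNF-α at an adjusted p under 0.05 and 1.93% lower. Among genes that averaged 1 FPKM or more, 5.09% were higher. Among 9 loading partners, Tapbpl, Erap1 and Uggt1 were higher with TNF-α, none was lower, and the median log2 fold change was 0.09. Tapbpl, a relative of tapasin that edits peptides, went from 5.04 ± 0.280 FPKM in Con to 8.29 ± 0.286 FPKM in TNF-α and 7.89 ± 0.266 FPKM in TNF-α+WBT (SD, n = 3). Erap1, which trims peptides in the endoplasmic reticulum, went from 17.2 ± 0.907 FPKM to 24.5 ± 1.29 FPKM and 23.1 ± 1.46 FPKM (SD, n = 3). Uggt1, which senses misfolded glycoproteins, had a log2 fold change of 0.28 (adjusted p = 0.00793, limma), and without the intensity trend its adjusted p was 0.0723. The immunoproteasome cuts peptides suited to class I grooves, and 3 of its 5 listed genes, Psmb8, Psmb10 and Psme2, were higher with TNF-α, at a median log2 fold change of 0.55 over the 5. Psmb10 went from 19.0 ± 1.0 FPKM in Con to 33.2 ± 2.41 FPKM in TNF-α (SD, n = 3; log2 fold change 0.80). Psmb8 went from 1.72 ± 0.252 FPKM to 3.34 ± 0.60 FPKM (SD, n = 3; log2 fold change 0.91). Psmb9, the neighbour of Tap1, missed the threshold in TNF-α vs. Con (log2 fold change 0.55, adjusted p = 0.16, limma) and passed it in TNF-α+WBT vs. Con (log2 fold change 0.90, adjusted p = 0.0309, limma), and the difference between these was itself not past the threshold (log2 fold change 0.35, adjusted p = 0.821, limma). Of the 3 constitutive subunits that immunoproteasome subunits replace, 0 had an adjusted p under 0.05 in limma and 0 an unadjusted one. The most abundant, Psmb6 and Psmb7, had log2 fold changes of -0.02 and -0.003 with intervals from -0.14 to 0.09 and from -0.14 to 0.13. Psmb5 was less closely bounded, with a log2 fold change of 0.20 and a standard error of 0.13 (adjusted p = 0.518, limma).

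Of 17 listed regulators of class I genes, 5 were higher with TNF-α, Irf1, Stat2, Nfkb1, Nfkb2 and Relb. The same call was made for 2.94% of all tested genes and 5.09% of those that averaged 1 FPKM or more. None of the regulators was lower, where 1.93% of all tested genes were, and their median log2 fold change was 0.24. Relb, an NF-κB subunit, went from 5.21 ± 0.504 FPKM in Con to 23.5 ± 3.37 FPKM in TNF-α and 21.2 ± 1.64 FPKM in TNF-α+WBT (SD, n = 3; log2 fold change 2.15 for TNF-α vs. Con). Nfkb2, whose product pairs with Relb, went from 20.7 ± 1.44 FPKM to 48.6 ± 1.94 FPKM and 44.2 ± 1.14 FPKM (SD, n = 3; log2 fold change 1.23). Irf1, which binds interferon response elements, went from 19.4 ± 0.222 FPKM to 31.4 ± 2.00 FPKM and 27.3 ± 4.60 FPKM (SD, n = 3; log2 fold change 0.69). Among 10 interferon ligands and receptors, Ifng, Ifnb1, Ifna4, Ifnl2 and Ifnl3 were listed at 0 in all libraries and 4 genes, the receptors, could be tested. Ifngr2 went from 11.1 ± 0.990 FPKM in Con to 27.4 ± 0.409 FPKM in TNF-α (SD, n = 3; log2 fold change 1.295, adjusted p = 9.26e-06, limma). Ifngr1 had a log2 fold change of 0.60 at an adjusted p of 0.0461 in limma, a call lost under 15 of 19 alternatives. In the MHC class II list of 11 genes, 5 could be tested and Cd74 alone passed the adjusted p in limma, while the median log2 fold change of the 5 was -0.004. Cd74, the invariant chain, was at 0.982, 1.06 and 1.26 FPKM in Con, at 14.4, 15.7 and 15.0 FPKM in TNF-α, and at 10.3, 11.6 and 9.91 FPKM in TNF-α+WBT. From TNF-α to TNF-α+WBT 0 of the 61 tested genes of all these lists other than H2-M2 had an adjusted p under 0.05 in limma and 5 an unadjusted one, 4 of them lower (6.56%, against 3.43% of all tested genes), with Cd74 at a log2 fold change of -0.50 with an adjusted p of 0.356.

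Of 12675 other genes that averaged 1 FPKM or more, 5 had profiles over the 9 libraries most like the mean profile of the class I genes. They were Bst2 with a Pearson r of 0.998, Vcam1 with 0.997, Rnd1 with 0.997, Cd74 with 0.996 and Col6a1 with 0.996. Bst2 averaged 42.2 FPKM in Con, 89.7 FPKM in TNF-α and 79.6 FPKM in TNF-α+WBT. All points of such a correlation come from the same 3 groups, and the order of the groups is part of what it measures.

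By position, 7 of the 9 class I genes lie in the H2 region of chromosome 17, and B2m and Nlrc5 lie elsewhere. In GENCODE release M21 for GRCm38, B2m is at chr2:122147686-122153083 and Nlrc5 at chr8:94434356-94527272, both on the plus strand. In the H2 region Tapbp is at chr17:33915899-33929292, H2-K1 at chr17:33996017-34000347, Tap1 at chr17:34187553-34197225 and Tap2 at chr17:34203527-34216321. Further along are H2-D1 at chr17:35262730-35267499, H2-Q4 at chr17:35379617-35385290 and H2-T23 at chr17:36029773-36032855, with H2-K1 and H2-T23 on the minus strand and the others on the plus strand. The stretch from Tapbp to H2-T23 spans 2.12 Mb and was set after the values of the class I genes were known. It holds 148 tested genes, of which 14 were higher and 2 lower with TNF-α at an adjusted p under 0.05. Of these, 6 of the 7 class I genes there were higher, at a median log2 fold change of 1.18. Among the 135 tested genes of the stretch outside all class I lists, 7 were higher (5.19%, against 2.94% of all tested genes) and 2, Abcf1 and Gm20463, were lower, at a median log2 fold change of 0.02.

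**Figure D3:**
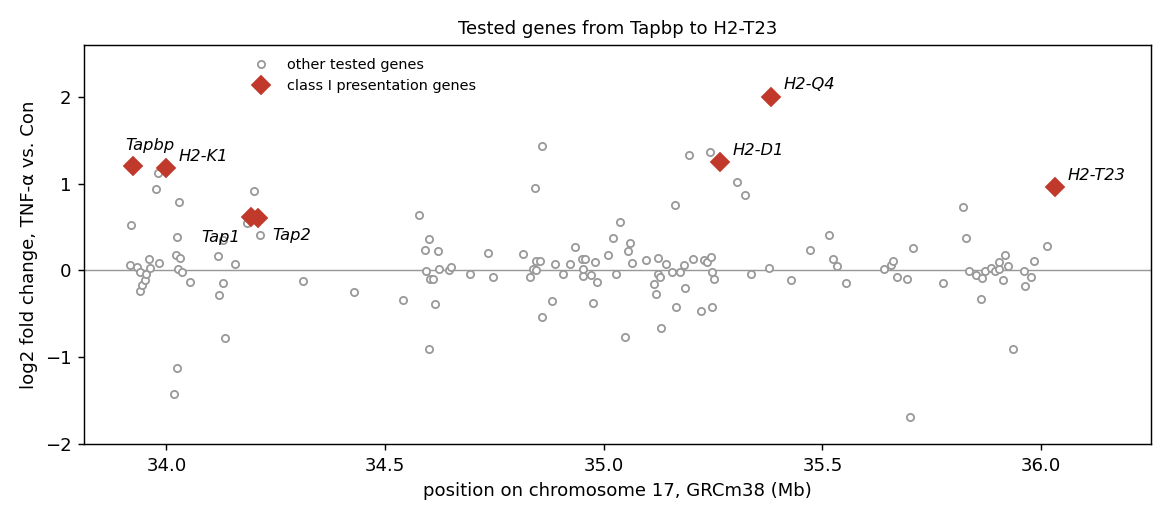
Log2 fold change from Con to TNF-α of the 148 tested genes between Tapbp and H2-T23, by position on chromosome 17 (GRCm38, Mb). Filled diamonds are the 7 class I presentation genes of the stretch, and open circles are the other tested genes.

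As most of these genes rose together with TNF-α, their RefSeq promoters (GRCm38.p6) were searched for shared motifs. Entries were found for 7 of the 9 class I genes, without Tap2 and Nlrc5. Motifs were searched on both strands of the 250 bases before each start, in 32851 promoters of 27025 genes. The κB consensus, searched by its usual letters, occurred in 7.25% of all these promoters and in those of B2m, H2-K1, H2-D1 and H2-Q4. The interferon response letters GAAA, NN and GAAA in a row occurred in 2.98%, among them B2m and H2-T23. The shorter GAANNGAAA, chosen after the sequences were read, occurred in 6.31%, among them H2-K1, H2-D1 and H2-Q4. The κB consensus and GAANNGAAA fell in the same promoter in 0.381% of cases, 125 promoters, which include those of all 3 of these heavy chains. TGACG and CCAAT, also chosen after the sequences were read, occurred in 17.8% and 33.8% of promoters, and in 5 and 7 of the 7 class I promoters. The letters here and below are those of the C57BL/6J reference, whereas the labels give BALB/c, whose sequence was not compared. A match describes letters, not a bound site or a cause.

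The 4 stretches below are shown because all 4 genes rose over 2-fold with TNF-α in the model reported. In B2m the κB consensus lies beside the interferon response letters. In H2-K1, H2-D1 and H2-Q4 it lies beside the shorter GAANNGAAA only, on the opposite strand, a motif chosen after these sequences were read. Capitals mark the κB consensus and these letters. H2-K1 is from chr17:34000429-34000458 on the minus strand, H2-D1 from chr17:35262923-35262952 on the plus strand and H2-Q4 from chr17:35379443-35379472 on the plus strand. B2m is from chr2:122147548-122147570 on the plus strand, where the interferon letters come before the κB letters. In the heavy chains the κB letters come first, before the shorter motif.
H2-K1: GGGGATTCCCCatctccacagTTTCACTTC
H2-D1: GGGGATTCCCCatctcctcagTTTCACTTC
H2-Q4: GGGGATTTCCCatctccccagTTTCACTTC
B2m: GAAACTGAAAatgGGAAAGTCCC
The H2-K1 and B2m stretches lie upstream of the annotated genes, the H2-D1 stretch lies in an annotated exon of H2-D1, inside the gene span given above, and the H2-Q4 stretch lies in an exon of Gm11131. Over the 30 bases H2-K1 and H2-D1 share 29, and H2-Q4 shares 28 with each of them. RefSeq gives 2 starts for H2-K1, and the stretch begins 111 bases before the upstream start and 125 before the other. It begins 171 bases before the start in H2-D1, 174 in H2-Q4 and 139 in B2m. H2-T23, which rose 1.94-fold, and Tapbp, which rose 2.30-fold, have promoter entries without the κB consensus in this window. The Tapbp window, chr17:33919228-33919477, lies inside the annotated Tapbp gene, not before its start, and nothing is read from the missing match.

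The promoters of H2-K1 and B2m are given over the whole window, as examples of a heavy chain and the light chain, with the same capitals. The H2-K1 window, that of the upstream start, is chr17:34000348-34000597 on the minus strand and holds 0 annotated exon bases (14 for the other start), and the B2m window is chr2:122147437-122147686 on the plus strand and holds 1. The windows of H2-D1, H2-Q4, Tap1 and Tapbp are exon sequence over all 250 bases, and that of H2-T23 over 154.
H2-K1: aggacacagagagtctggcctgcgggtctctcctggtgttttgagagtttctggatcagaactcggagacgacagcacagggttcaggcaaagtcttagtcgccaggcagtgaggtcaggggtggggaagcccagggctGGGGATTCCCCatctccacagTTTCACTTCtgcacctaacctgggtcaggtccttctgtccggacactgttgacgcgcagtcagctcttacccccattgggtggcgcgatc
B2m: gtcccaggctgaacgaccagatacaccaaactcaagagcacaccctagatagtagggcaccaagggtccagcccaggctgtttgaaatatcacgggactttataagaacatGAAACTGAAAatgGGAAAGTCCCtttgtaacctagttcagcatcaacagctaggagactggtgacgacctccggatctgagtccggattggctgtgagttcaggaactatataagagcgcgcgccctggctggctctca
In both, the κB consensus lies upstream of a TGACG, which ends 37 bases before this start in H2-K1 and 74 before the start in B2m, and a CCAAT on the opposite strand follows closer to the start.

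Class I heavy chains are highly polymorphic and closely similar to each other, so their levels depend on how fragments were assigned. The labels give BALB/c, whereas the mouse reference is C57BL/6J, and the effect on these levels was not tested. Of the windows of 100 bases in the main transcript, 4.64% in H2-D1, 2.66% in H2-Q4 and 7.28% in H2-T23 also occurred in a transcript of another gene, and 0% in H2-K1, B2m, Tap1, Tap2 and Nlrc5. The H2-T23 windows were shared mostly with Gm7030, Gm11127 and H2-D1. Some exons also overlap other genes, and the sources do not say whether the libraries kept the strand. Of Tapbp exon bases, 29.0% overlap Zbtb22 on the same strand or Gm19412 on the opposite strand, which were at most 14.7 and 4.57 FPKM. Of H2-Q4 exon bases, 19.1% overlap Gm11131 on the opposite strand, at most 0.121 FPKM. Of Tap2 exon bases, 18.5% overlap Gm15821 or Gm20496 on the opposite strand, at most 0.767 and 0 FPKM, and of Tap1 exon bases 3.87% overlap Psmb9, at most 3.51 FPKM. Fragments shared with Zbtb22 cannot be told apart by strand, and those shared with the other genes cannot where the strand is not known.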

How the data were processed

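The authors deposited FPKM per gene and per transcript for 9 libraries, with HISAT2, StringTie and Ballgown named in a workflow figure of the paper; versions and the genome build were not given in the sources used here. All columns were mapped to a library (0 left over), and genes were matched by ID to GENCODE release M21. Every gene with a value over 0 FPKM in 3 or more libraries entered limma 3.58.1 in R 4.3.3 (lmFit, contrasts, eBayes with an intensity trend) on log2(FPKM + 0.1), in 1 model with a mean per group, two-sided, with Benjamini-Hochberg adjustment over all tested genes. Calls needed an adjusted p under 0.05 or, separately, more than a 2-fold change and an unadjusted p below 0.05. The model was tested on simulated data. Tables, exact permutation tests, transcript shares, motif searches and figures used scipy 1.17.1, numpy 2.4.6, matplotlib 3.10.9 and pandas 2.3.3 under Python 3.11.15. Depth was estimated from genes with a single transcript over 1000 bases, searched from 10000000 to 30000000 fragments.

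The members and lists were chosen with earlier results of these data known. All 9 class I genes are named. From each other list the genes with an adjusted p under 0.05 are named, at most 4 by the smallest p in TNF-α vs. Con, and where none passed the 2 with the highest mean. The 5 genes most like the class I genes were ranked by Pearson r. Counts of 5 or fewer are also named in full, and those names were chosen after the values were seen. The lists were other heavy chains, class I-like proteins, loading partners, immunoproteasome, constitutive subunits, regulators, interferon ligands and receptors, MHC class II, and cell type markers. The alternatives changed the pseudocount or the low-value filter, dropped the trend, fitted the 2 compared groups alone, used quantile normalization or median centring, summed transcripts, added a replicate block, or left out each library.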

Additional observations from a re-analysis of the deposited data

How the results depend on the processing

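With TNF-α against Con, 7 or 8 of the 9 class I genes passed under every alternative, 7 in the model of only the 2 groups compared, and 7 without Con replicate 1 or 2 or TNF-α replicate 2 or 3. B2m, H2-K1, H2-D1, H2-Q4, H2-T23, Tap2 and Tapbp passed under all 19 alternatives, and Nlrc5 under 12. In TNF-α+WBT against TNF-α, 0 passed the adjusted p in limma under every alternative, and against Con 7 did. Lower at an unadjusted p under 0.05 in TNF-α+WBT against TNF-α were 4 in the model reported, 0 without the intensity trend or TNF-α+WBT replicate 1, and 5 at most (without Con replicate 3). Of the other lists, 16 of 62 tested genes (H2-M2 among the 62) passed in TNF-α+WBT against Con, where 2.31% of all tested genes were higher. With 1 library left out, 10 to 16 genes of these lists passed, with 10 without Con replicate 1, Con replicate 3 or TNF-α+WBT replicate 3. The class I genes without overlap between TNF-α+WBT and TNF-α numbered 5, and 3 after quantile normalization, 4 after median centring, and 5 to 6 with 1 library left out. The cause was not tested.

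Some log2 fold changes near 0 changed sign when 1 library was left out. For TNF-α+WBT against TNF-α they ranged from -0.175 to 0.019 in H2-K1 (above 0 without TNF-α+WBT replicate 1), from -0.256 to 0.143 in Tap1 (above 0 without TNF-α replicate 3) and from -0.022 to 0.129 in Tap2 (below 0 without TNF-α+WBT replicate 2). For TNF-α against Con they ranged from -0.085 to 0.019 in Psmb6 and from -0.054 to 0.04 in Psmb7. None of these passed the adjusted p under 0.05. The fold changes followed numbered 48. They were those of the class I genes in all comparisons and of tested genes named from the other lists in TNF-α against Con. H2-M2 was included, and Stat2, Psmb5 and the cell type markers were not. All 18 values of H2-M2, 9 of them with 1 library left out, are counted below as kept. With 0 in all Con libraries, H2-M2 was tested only through the treated groups, so its values do not show that a call holds. Under other settings, 468 values kept their direction and side of the threshold and 11 lost the call. With 1 library left out, 407 kept both, 16 lost the call, 1 gained it and 8 changed sign.

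Libraries with the same replicate number had correlations from -0.05 to 0.10 after group means were removed, within the range of -0.12 to 0.12 for libraries with other numbers, so no pairing by number was seen. With a replicate block, 7, 0 and 7 class I genes and 15 (H2-M2 included), 0 and 15 genes of the other lists passed in TNF-α against Con, TNF-α+WBT against TNF-α and TNF-α+WBT against Con. For Nlrc5 the replicate block gave an adjusted p of 0.0846 for TNF-α against Con, and the model of only the 2 groups gave 0.0664, within 0.0124 to 0.102 over all alternatives.

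Depth limits Tap1 and Nlrc5 most, with at most 177 and 234 estimated fragments in a library, and their transcripts cannot be read singly. The class I levels are those of RNA, and no surface protein was measured.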
